A study of Mus musculus with 20 samples.

Results

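Mouse colonoid cultures were compared at the 2 latest time points after passage, 7 days post-passage (DPP) against 5 DPP. Colonoids are epithelial structures grown from colonic crypts in Matrigel, a gel of basement membrane proteins. The members were the 8 libraries collected at 5 and 7 DPP, of 20 libraries in the whole series, and they were chosen by the labelled day alone. Each day had 4 libraries, from 2 WT mice (C57BL/6) and 2 Tnfr2-/- mice (B6.129S2-Tnfrsf1btm1Mwm/J), and the number in each label was taken as the mouse, so that each mouse gave 1 library a day. The Tnfr2-/- allele is a whole-body deletion of TNFR2, a receptor for tumor necrosis factor, so every cell of those cultures carried it, not the epithelium alone. The cultures were started from the colon of mice aged 8 weeks, male and female, passaged 5 times, seeded through a nylon mesh and fed IntestiCult medium. The sex behind each library was not given in the sources used here, and the labels name no drug or cytokine. The study describes Pdgfra+ fibroblasts beside the epithelium in cultures of this kind, so the RNA is that of a mixed culture.

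Beneath the colonic epithelium lies a basement membrane of type IV collagen, laminins and nidogen, and under it a stroma of fibrillar collagens and glycoproteins made mostly by fibroblasts. Matrix metalloproteinases cut these proteins, tissue and serine protease inhibitors restrain the proteases, and integrins hold cells to the matrix. Fibroblasts that take up the actin and myosin of smooth muscle become contractile, a change that transforming growth factor beta (TGF-beta) is known to promote. Epithelial cells in a crypt divide at its base and mature as they leave it, into absorptive colonocytes and into secretory goblet, deep crypt secretory, enteroendocrine and tuft cells. After injury the epithelium can enter a regenerative state with genes of the fetal gut, such as Ly6a (Sca-1).

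Expression is given as normalised expression, the transcript abundance (TPM) of all transcripts of a gene divided by a size factor of the library. The 8 libraries summed to between 943039 and 1111080, and between 13132 and 13469 genes had a value of at least 1. The read depth of single libraries is unknown, so no counting error is given for low values. Sets of 4 values are given in the order WT mouse 1, WT mouse 2, Tnfr2-/- mouse 1 and Tnfr2-/- mouse 2. The Pearson correlation between any 2 of the 8 libraries, across genes, lay between 0.876 and 0.955. WT mouse 1 stood apart. On the first principal component, with 33.2% of the variance, its 5 DPP library had a score of -71.7, and the other 7 libraries lay between -30.5 and 40.8. On the second, with 17.0%, its 7 DPP library had the highest score, 48.8. WT mouse 2 lay at the other end of the second component, at -46.4 at 5 DPP and -27.2 at 7 DPP. The Tnfr2-/- libraries lay there between 1.48 and 9.57. Several results that rest on WT mouse 1, and some that rest on WT mouse 2, are therefore also given without that mouse.

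The targeted gene was examined first. Tnfrsf1b, on chromosome 4 of GRCm38, lay at 13.9, 13.6, 8.08 and 7.59 at 5 DPP and 21.9, 14.2, 7.84 and 11.4 at 7 DPP. It was lower in the Tnfr2-/- than in the WT libraries on each of these days, and was not at 0 in the Tnfr2-/- libraries. Reads summed over the gene do not show whether the deleted part is transcribed. The log2 difference between the days was 0.29 ± 0.19 (SE, adjusted p = 0.569). Epithelial markers were abundant in all 8 libraries. The 14 listed, among them Krt19 and Krt8, keratins of simple epithelium, and Lgals4, a galectin of the gut lining, summed to 19844 to 21725 at 5 DPP and 16047 to 22400 at 7 DPP, and their median log2 difference was -0.017. The ratio of the sum at 7 to that at 5 DPP was 1.13 in WT mouse 1 and 0.847, 0.758 and 0.784 in WT mouse 2, Tnfr2-/- mouse 1 and Tnfr2-/- mouse 2, so the sum was lower at 7 DPP in 3 mice. Krt19 was lower at 7 DPP in all 4 mice, at 7499, 8254, 7872 and 8229 at 5 DPP and 7166, 6492, 5246 and 5890 at 7 DPP, with no overlap between the days (log2 difference -0.37 ± 0.11, adjusted p = 0.31). Krt8 was lower in 3 mice (-0.37 ± 0.14) and Lgals4 in 2 (-0.059 ± 0.13).

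Other cell types gave little signal. Of 10 endothelial markers, 2 reached the mean of 1 that was required for testing, Eng (log2 difference 0.28 ± 0.31) and Vwf (0.60 ± 0.40), Emcn was listed at 0 throughout, and the summed list lay between 5.84 and 21.8 in the 8 libraries. Of 15 immune markers, 4 reached it, led by the monocyte receptor Cd14 (0.47 ± 0.18), Cd68 (0.22 ± 0.32) and Csf1r (0.086 ± 0.26), Cd3g, Cd79a and Tyrobp were among those listed at 0, and the sum lay between 40.9 and 107. Of 9 markers of enteric nerve and glia, 2 reached it, Ret (1.10 ± 0.31) and Uchl1 (-0.33 ± 0.41), and the sum lay between 3.37 and 13.

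The day effect was tested with limma on log2(normalised expression + 1) in the 8 libraries, with the mouse as a block, over 13565 genes with a mean of at least 1. No gene passed an adjusted p of 0.05 in this fit (0% of genes tested in each direction), and the lowest adjusted p was 0.118. At an unadjusted p under 0.05 there were 943 higher genes (6.95%) and 744 lower genes (5.48%). In an alternative fit over all 20 libraries, which estimates the spread from the other days too, 108 genes were called (0.796%), 71 of them higher (0.523%) and 37 lower (0.273%) at 7 DPP. That number rested on single mice. In the same fit on 15 libraries it was 31 without WT mouse 1, 301 without WT mouse 2, 1 without Tnfr2-/- mouse 1 (the predicted gene Gm48583) and 0 without Tnfr2-/- mouse 2 (limma, 1333 at an unadjusted p under 0.05). Each of the 108 genes kept its sign and an unadjusted p under 0.05 in all 4 of these fits, while 14, 70, 0 and 0 of them kept their call. Unless another fit is named, a gene described as called was called by the fit over 20 libraries. Both adjusted p-values are given where its values are. Of all genes, 50.1% had a log2 difference above 0. Independent of any threshold, 1539 genes (11.3%) were higher at 7 DPP in all 4 mice and 1305 (9.62%) were lower in all 4. Those shares are the background for the list counts that follow, and with no gene called in the 8 libraries a list is described by its counts and its median. The lists were written with earlier results of these data known, so a share set beside this background is a description. In bulk RNA, a different share of a cell type in the culture and a different amount of a transcript per cell cannot be told apart. In each list the 2 most abundant members (3 for cell type markers) are given by rule, and most other members named were chosen after their values were seen. The median log2 difference over all genes was 0.0011.

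Among genes of the same sign in every mouse, and leaving out predicted genes, the 10 with the lowest unadjusted p in each direction were named by rule, and none of the 20 passed the adjusted threshold in the 8 libraries. Where days are said not to overlap, here or elsewhere, this is a description. Choice by low p favours it, and its share over all genes was not counted. The genes left out ahead of these were Gm11847, listed at 0 in every mouse at 5 DPP and at 10.3, 9.12, 7.51 and 6.19 at 7 DPP, Gm20691, and on the lower side AC147512.2, known by a clone name only and listed at 0 in every mouse at 7 DPP. The highest-ranked of the named genes that were higher at 7 DPP was Try5 (ENSMUSG00000036938, chromosome 6, 41311233 to 41316841, minus strand), a trypsin of a family with near-identical copies between which pseudoaligned reads can be exchanged. Its expression was 1.08, 19.5, 23.2 and 13.9 at 5 DPP and 6.04, 73, 123 and 106 at 7 DPP, and the day ranges overlapped because WT mouse 1 was low on each day (log2 difference 2.21 ± 0.21, a 4.62-fold ratio, adjusted p = 0.118, and 0.0326 over 20 libraries). Ang4, an antimicrobial ribonuclease of secretory cells, was 23.8, 3.98, 5.03 and 2.89 at 5 DPP and 91.1, 68.4, 26.1 and 27.7 at 7 DPP. The days did not overlap, and the log2 difference was 2.69 ± 0.32 (adjusted p = 0.173, and 0.0266 over 20 libraries). Serpina1e, an alpha-1-antitrypsin of another multigene family and listed at 0 in 1 library, was 0, 0.926, 2.07 and 5.65 at 5 DPP and 2.94, 7.52, 22.6 and 22.6 at 7 DPP, higher in each mouse (2.22 ± 0.26, adjusted p = 0.173). Klk15, a kallikrein-type serine protease, was 5.93, 3.93, 12.8 and 24.5 at 5 DPP and 32.3, 28.4, 42.6 and 48.5 at 7 DPP, again without overlap (1.86 ± 0.28, adjusted p = 0.205). The other higher genes of this group included Rhoj, a small GTPase (1.04 ± 0.15), Cotl1, an actin-binding protein (0.79 ± 0.11), and Ltbp2, Col12a1 and Col5a3, which are matrix genes described below.

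Of the named genes that were lower, Krt14 (ENSMUSG00000045545, chromosome 11, 100203162 to 100207548, minus strand), a keratin of basal stratified epithelium, had the lowest p. It was 565, 1768, 1137 and 1191 at 5 DPP and 288, 596, 479.8 and 425 at 7 DPP. The 7 DPP value was lower in every mouse, and the day ranges overlapped by the margin of WT mouse 1 at 5 DPP against WT mouse 2 at 7 DPP. Its mean was 1165 ± 492 at 5 DPP and 447 ± 128 at 7 DPP (SD, n = 4), and the log2 difference was -1.32 ± 0.12, a ratio of 0.402 (adjusted p = 0.118, and 0.0169 over 20 libraries). Krt6a, a keratin of wounded and hyperproliferative epithelium, was 94, 463, 333 and 279.7 at 5 DPP and 31.6, 270.1, 184 and 145 at 7 DPP (-1.03 ± 0.15, adjusted p = 0.205). Fabp5, the epidermal fatty acid-binding protein, was 76.4, 163, 162 and 142 at 5 DPP and 35.5, 49.5, 59 and 67.8 at 7 DPP. Its days did not overlap (-1.32 ± 0.14, adjusted p = 0.155, and 0.00115 over 20 libraries). Tgm1, the transglutaminase that cross-links the cornified envelope, was 17.9 to 36.5 at 5 DPP and 5.87 to 15.8 at 7 DPP without overlap (-1.22 ± 0.15). The remaining lower genes named by the rule were Ly6g, a Ly6-family surface protein (-1.34 ± 0.17), Jag2, a Notch ligand (-1.43 ± 0.19), Ccnd1, cyclin D1 (-0.92 ± 0.14), Pcsk6, a proprotein convertase (-0.93 ± 0.14), Lrrc28 (-1.29 ± 0.18) and Rsc1a1 (-2.10 ± 0.33). Krt36, a keratin, and Scel, the cornified-envelope protein sciellin, were added because the fit over 20 libraries called them. Krt36 was 160 to 239.7 at 5 DPP and 37.7 to 136 at 7 DPP (adjusted p = 0.223, and 0.000135 over 20 libraries), and Scel was 22.9 to 38 at 5 DPP and 7.48 to 21.8 at 7 DPP (adjusted p = 0.223, and 0.0184).

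**Figure D1:**
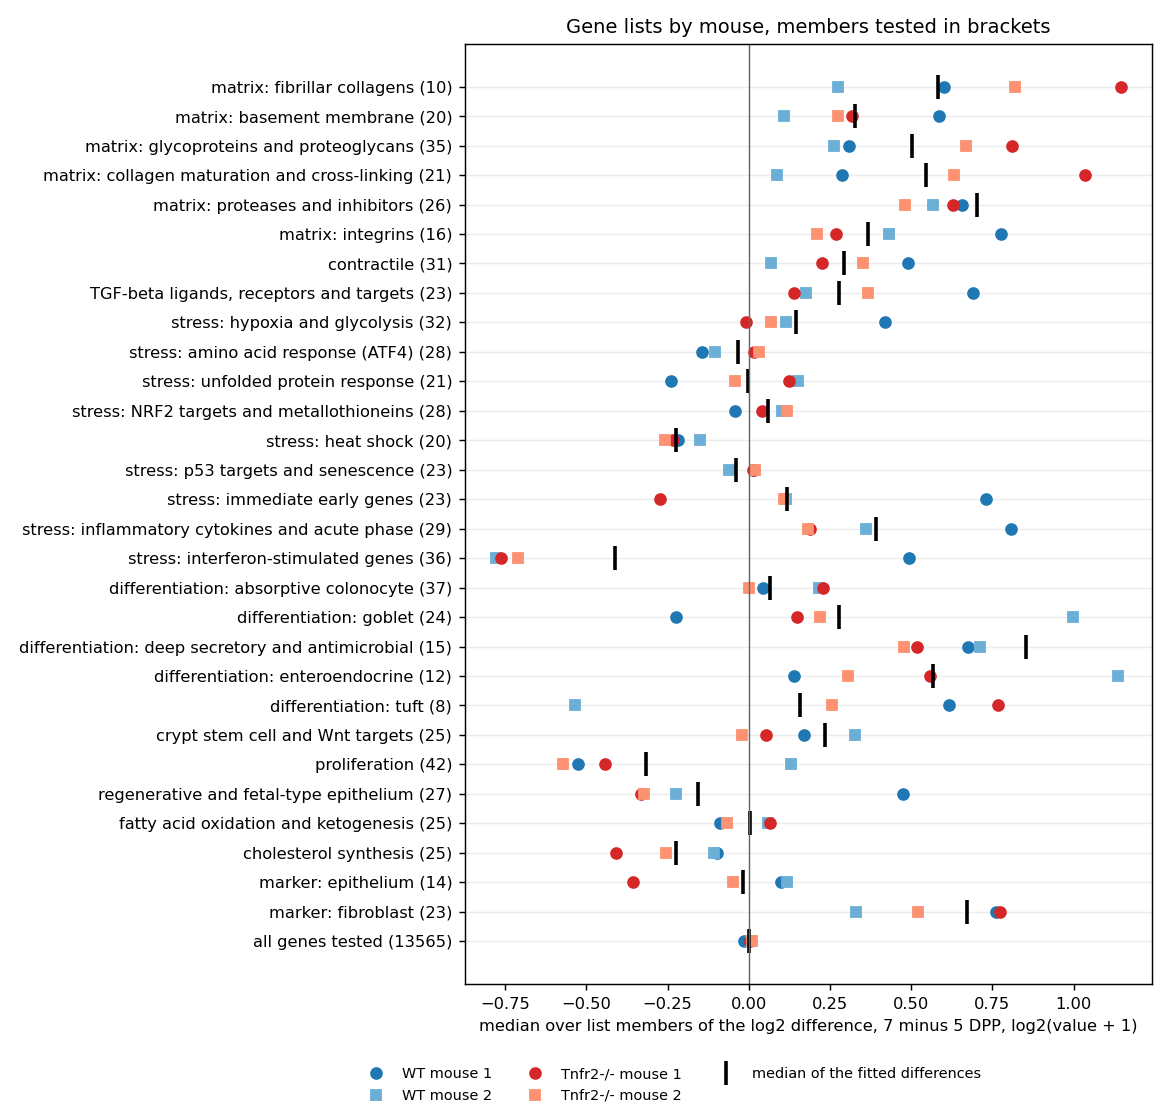
Median log2 difference (7 minus 5 DPP, on log2(normalised expression + 1)) over the tested members of each gene list on the horizontal axis, with the lists on the vertical axis and the number of members tested in brackets. Coloured points are the 4 mice, and the black bar is the median of the differences fitted over the mice. Matrix, contractile and fibroblast lists lie above 0 in each mouse, heat shock and cholesterol synthesis below 0, and interferon-stimulated genes at 0.49 in WT mouse 1 against -0.78, -0.76 and -0.71 in the other 3.

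Matrix genes were mostly higher at 7 DPP, and each of the 5 matrix lists of structural proteins and enzymes was above 0 in median in all 4 mice. Of 10 fibrillar collagens, 7 were higher in every mouse (70%, against 11.3% of all genes) and none was lower in every mouse, and the median log2 difference was 0.58. By mouse the median was 0.60, 0.28, 1.15 and 0.82. Col3a1 (ENSMUSG00000026043, chromosome 1, 45311538 to 45349706, plus strand), the type III collagen chain of reticular fibrils, was 410, 1446, 869.8 and 1216 at 5 DPP and 549, 1716, 1946 and 2109 at 7 DPP. WT mouse 1 lay below the other mice on each day, and the Tnfr2-/- mice at 7 DPP were above all libraries of 5 DPP (log2 difference 0.66 ± 0.16, adjusted p = 0.276). Col1a2, a chain of type I collagen, was 237, 558, 406 and 682 at 5 DPP and 259, 615, 891 and 1159 at 7 DPP (0.54 ± 0.19, adjusted p = 0.343). Its partner Col1a1 ran from 189.8 to 592 at 5 DPP and 189.9 to 1120 at 7 DPP, with the values of WT mouse 1 equal to within 0.1 (0.62 ± 0.21). The type V chains, which set fibril width, had the lowest adjusted p-values of the list. Col5a3 was 11.4, 33.6, 40.7 and 57.7 at 5 DPP and 33.8, 52.7, 113 and 123 at 7 DPP (1.16 ± 0.17, adjusted p = 0.205, and 0.021 over 20 libraries), and Col5a2 was 39.2, 97.5, 127 and 213 at 5 DPP and 94.7, 143, 298 and 362 at 7 DPP (0.95 ± 0.15, adjusted p = 0.205, and 0.0266).

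Basement membrane genes were higher to a lesser extent. Of 20 tested, 10 were higher in all 4 mice (50%), none was lower in all 4, and the median was 0.33. The lower side rested on WT mouse 1, since without it 6 of 20 were lower and 11 higher in the other 3 mice, where 16.7% of all genes were lower and 19.0% higher. Col4a1, a chain of the type IV collagen network, was 405, 1017, 858 and 1326 at 5 DPP and 786, 1219, 1184 and 1594 at 7 DPP, so that each mouse was higher at 7 DPP while the ranges overlapped (0.49 ± 0.14, adjusted p = 0.3). Col7a1, the collagen of the fibrils that anchor the basement membrane to the stroma, was 22.4, 68.2, 67.9 and 146 at 5 DPP and 125, 135, 175 and 249.6 at 7 DPP. It was higher in every mouse and called in the fit over 20 libraries (1.38 ± 0.27, a 2.60-fold ratio, adjusted p = 0.223, and 0.0266 over 20 libraries). The sum of the list lay between 1715 and 4575 at 5 DPP and between 3180 and 5275 at 7 DPP, and was higher at 7 DPP within each mouse by a ratio of 1.05 to 1.85.

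Glycoproteins and proteoglycans, which fill and organise the stroma, had 18 of 35 tested members higher in all 4 mice (51.4%) and none lower in all 4, with a median of 0.50. The 2 most abundant were the collagen-binding proteoglycan decorin (Dcn) and biglycan (Bgn). Dcn was 135, 297, 1493 and 1573 at 5 DPP and 402, 399.9, 2551 and 2164 at 7 DPP, with the Tnfr2-/- mice above the WT mice on each day (0.81 ± 0.20, adjusted p = 0.276). Bgn was 404, 814, 664 and 1074 at 5 DPP and 455, 959, 1374 and 1852 at 7 DPP (0.56 ± 0.17, adjusted p = 0.305). Fibronectin (Fn1), periostin (Postn) and Col12a1, a collagen that decorates fibrils, were each higher in every mouse. Fn1 was 119.6, 906, 761 and 767 at 5 DPP and 279, 1195, 1269 and 1094 at 7 DPP (0.72 ± 0.15). Postn was 141, 463, 283 and 588 at 5 DPP and 279, 653, 956 and 1181 at 7 DPP (1.06 ± 0.19, adjusted p = 0.223). Col12a1 was 50.9, 128, 181 and 297 at 5 DPP and 134, 197, 403 and 566 at 7 DPP (1.02 ± 0.14, adjusted p = 0.205). The fit over 20 libraries called 3 members of the list. These were Fbln5, an elastic-fibre protein (1.11 ± 0.30, adjusted p = 0.296, and 0.0301 over 20 libraries), Igfbp7 (0.80 ± 0.16, adjusted p = 0.224, and 0.0177) and Col8a1 (0.95 ± 0.20, adjusted p = 0.224, and 0.0202).

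Enzymes and chaperones that hydroxylate, fold and cross-link collagen were higher beside the collagens, with 11 of 21 higher in all 4 mice (52.4%), none lower in all 4, and a median of 0.54. P4hb, the protein disulphide isomerase subunit that also serves other secreted proteins, was 624, 774, 650.2 and 751 at 5 DPP and 584, 742, 845 and 840.2 at 7 DPP, lower in the WT and higher in the Tnfr2-/- mice (0.10 ± 0.11). Serpinh1, the collagen chaperone HSP47, was 129, 348, 231 and 324 at 5 DPP and 153, 390.5, 459 and 595 at 7 DPP (0.57 ± 0.17, adjusted p = 0.303). The 3 members that the fit over 20 libraries called were higher in every mouse. Loxl2, a lysyl oxidase that cross-links collagen, was 8.97, 28.6, 42.1 and 62.1 at 5 DPP and 36.8, 52.9, 94.4 and 121 at 7 DPP (1.22 ± 0.20, adjusted p = 0.205, and 0.0175 over 20 libraries). Plod1, a lysyl hydroxylase, was 25.2 to 59.1 at 5 DPP and 42.3 to 109 at 7 DPP (0.90 ± 0.14, adjusted p = 0.205, and 0.0121). P4ha1, a catalytic subunit of prolyl 4-hydroxylase, was 39.8 to 128 at 5 DPP and 68.5 to 195 at 7 DPP (0.62 ± 0.13, adjusted p = 0.224, and 0.0289).

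**Figure D2:**
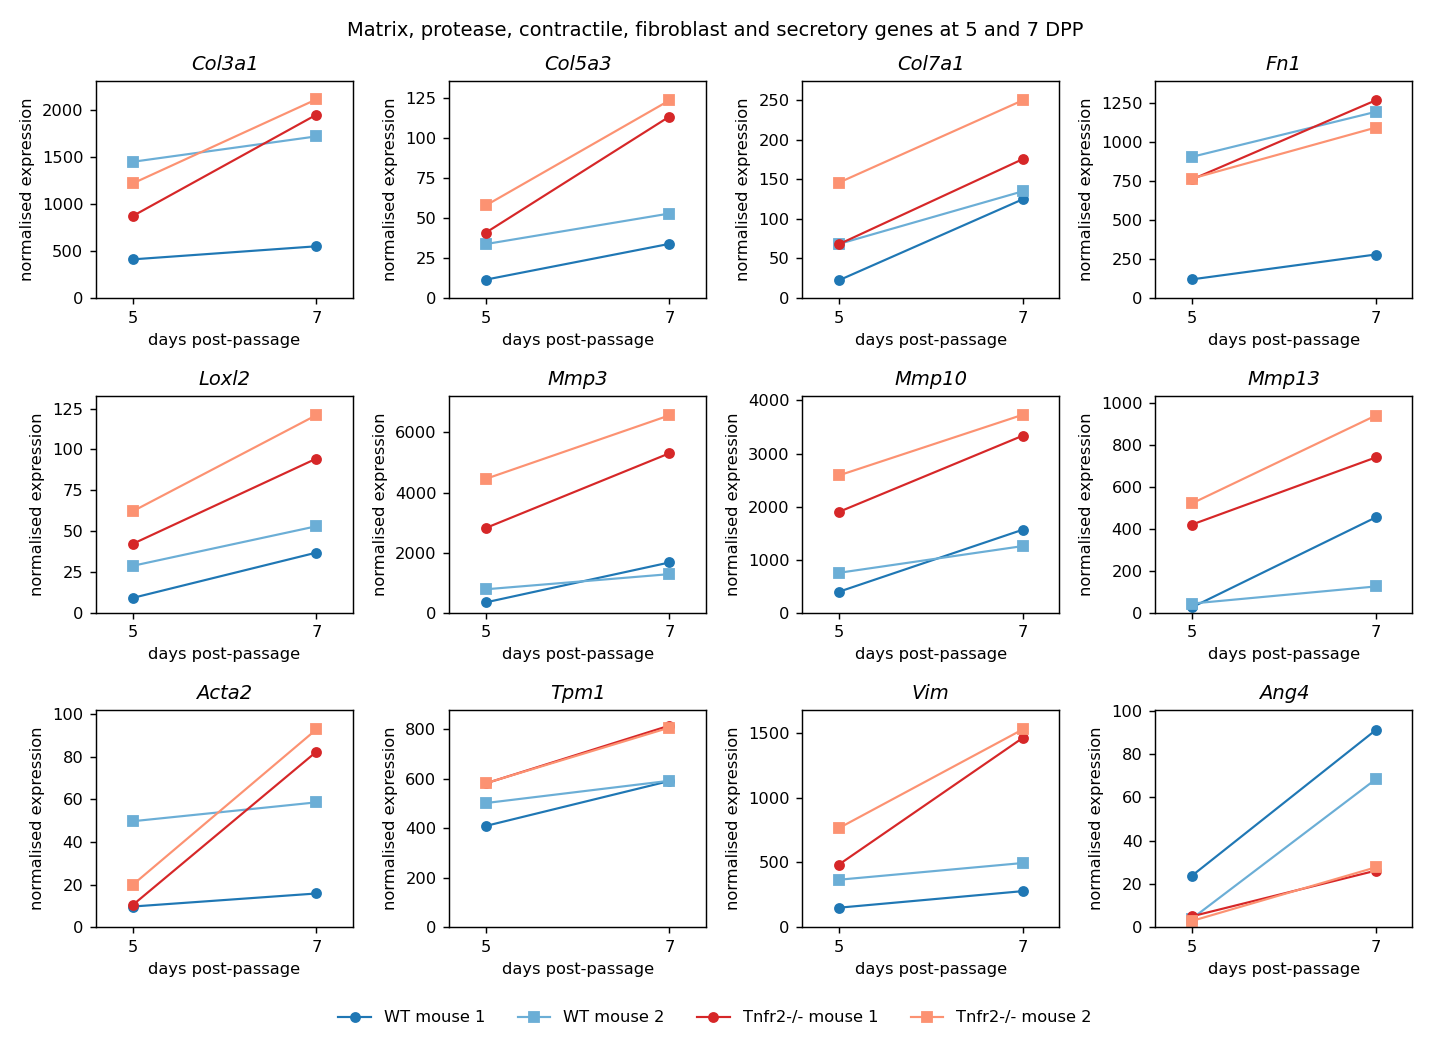
Normalised expression of 12 genes at 5 and 7 DPP, 1 panel a gene with its own vertical axis from 0, and 1 line a mouse. Each line is higher at 7 than at 5 DPP, from 410 to 549 for Col3a1 in WT mouse 1 up to 4454 to 6571 for Mmp3 in Tnfr2-/- mouse 2.

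Fibroblast markers were higher at 7 DPP with the matrix genes. Of 24 listed, 23 were tested, 13 were higher in all 4 mice (56.5%), none was lower in all 4, and the median was 0.67. The summed markers were 770.4, 1805, 2723 and 3456 at 5 DPP and 1378, 2237, 5516 and 5429 at 7 DPP. Some markers, Dcn among them, are also in a matrix list, so these values are not independent of those of the matrix lists. The 20 in no matrix list summed to 443.6, 1068, 1017 and 1575 at 5 DPP and 811.5, 1336, 2525 and 2815 at 7 DPP. The 3 most abundant of the 23 tested were Dcn, Vim and Col6a3. Vimentin (Vim), the intermediate filament of mesenchymal cells, was 151, 367, 484 and 766 at 5 DPP and 278, 496, 1462 and 1528 at 7 DPP (0.98 ± 0.18, adjusted p = 0.223, and 0.0301 over 20 libraries). Col6a3 was 150.3, 352, 146 and 251 at 5 DPP and 147, 421, 323 and 379 at 7 DPP, lower in WT mouse 1 and higher in the other 3 mice (0.49 ± 0.19). The mesenchymal transcription factor Prrx1 was 14.8, 36.5, 58.5 and 85.2 at 5 DPP and 45.8, 48.9, 112 and 139.6 at 7 DPP (adjusted p = 0.231, and 0.039 over 20 libraries), and Pdgfra, the receptor that marks these fibroblasts, was 20.6, 56.6, 32.4 and 53.7 at 5 DPP and 44.5, 64.4, 66 and 83.2 at 7 DPP (0.72 ± 0.18, adjusted p = 0.276). As a description, the fibrillar collagen sum was divided by the sum of the 20 fibroblast markers that are in no matrix list. The quotient was 2.10, 2.50, 1.80 and 1.83 at 5 DPP and 1.49, 2.39, 1.64 and 1.81 at 7 DPP, so in no mouse was it higher at 7 DPP.

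**Figure D3:**
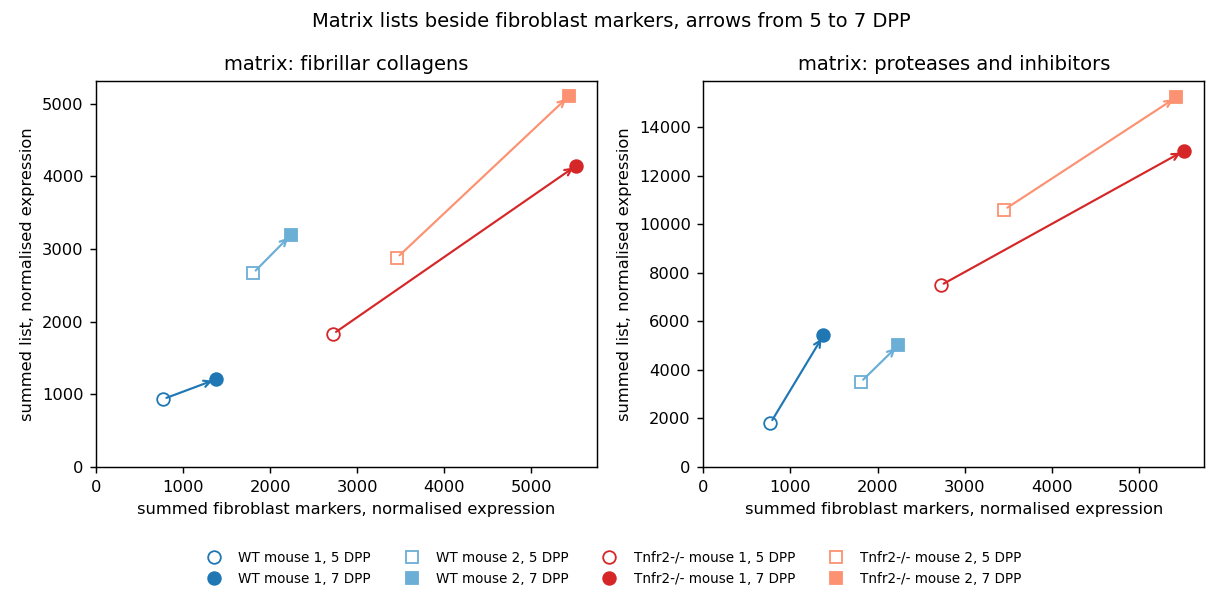
Summed normalised expression of the fibroblast markers (horizontal axis) against that of the fibrillar collagens (left) and of the matrix proteases and inhibitors (right), with open symbols for 5 DPP, filled symbols for 7 DPP and an arrow for each mouse. In each mouse both sums are higher at 7 DPP, and the WT mice lie at 770.4 to 2237 marker units against 2723 to 5516 in the Tnfr2-/- mice. The marker sum includes markers that are also in a matrix list.

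Proteases that cut the matrix, with their inhibitors, had a list median of 0.70, or 0.60 without WT mouse 1, and 18 of 26 members were higher in every mouse (69.2%). None was lower in every mouse, and the fit over 20 libraries called 5, among them Mmp3, Mmp10, Mmp13 and Mmp14. Mmp3 (ENSMUSG00000043613, chromosome 9, 7445822 to 7455975, plus strand), or stromelysin 1, was 340.2, 776, 2817 and 4454 at 5 DPP and 1670, 1281, 5308 and 6571 at 7 DPP. It was higher at 7 DPP in each mouse, and the WT values at 7 DPP lay below the Tnfr2-/- values at 5 DPP (1.12 ± 0.28, a 2.18-fold ratio, adjusted p = 0.281, and 0.0374 over 20 libraries). Mmp10, or stromelysin 2, was 393, 750.1, 1899 and 2587 at 5 DPP and 1562, 1254, 3335 and 3730 at 7 DPP, with the same order of the mice by genotype (1.02 ± 0.24, adjusted p = 0.265, and 0.0386). Mmp13, a collagenase that cleaves fibrillar collagen, was 25.3, 43.1, 419.5 and 520.5 at 5 DPP and 454, 124, 739 and 939 at 7 DPP. WT mouse 1 had the largest difference of the 4 mice (1.82 ± 0.53, adjusted p = 0.303, and 0.0399). Without that mouse the log2 difference was 1.06 for Mmp13 and 0.73 for Mmp3. Mmp14, a membrane protease that activates pro-MMP2, was 104 to 450.5 at 5 DPP and 238 to 576 at 7 DPP (0.70 ± 0.15, adjusted p = 0.231, and 0.0481). Divided by the 20 fibroblast markers, the summed list was 4.08, 3.27, 7.36 and 6.74 at 5 DPP and 6.68, 3.75, 5.16 and 5.41 at 7 DPP, higher in the WT mice and lower in the Tnfr2-/- mice at the later day, and the part of fibroblast content in the list was not tested.

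The promoters of the stromelysins and of the collagenase are shown because these 3 genes of 1 cluster on chromosome 9 were higher at 7 DPP in every mouse. Each line gives the 150 bases before the start site (RefSeq, GRCm38.p6, plus strand), with an AP-1 site, TGANTCA, in capitals. This motif reads the same on either strand.
Mmp3, chr9:7445672-7445821: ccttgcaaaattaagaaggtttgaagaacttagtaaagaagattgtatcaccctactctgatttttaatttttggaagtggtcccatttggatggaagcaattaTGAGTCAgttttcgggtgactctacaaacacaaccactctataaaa
Mmp10, chr9:7502192-7502341: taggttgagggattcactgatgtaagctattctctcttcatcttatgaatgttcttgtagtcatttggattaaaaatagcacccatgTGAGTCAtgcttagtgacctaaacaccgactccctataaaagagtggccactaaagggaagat
Mmp13, chr9:7272364-7272513: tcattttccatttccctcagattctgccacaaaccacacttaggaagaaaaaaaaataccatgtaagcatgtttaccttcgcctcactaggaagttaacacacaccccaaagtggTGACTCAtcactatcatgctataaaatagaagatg
The site began 46, 63 and 35 bases before the start site in Mmp3, Mmp10 and Mmp13. Windows of 250 bases before to 50 after the start were found for 16 of the 26 list members, and 5 held the motif (31.2%), against 2137 of 27025 promoters of the same length (7.91%). Mmp7 and Plaur were the other 2, and each was higher in 2 mice and lower in 2. A match of letters is a description and shows no binding.

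Integrins, the receptors that tie cells to this matrix, had 7 of 16 tested members higher in all 4 mice (43.8%), 1 lower in all 4, and a median of 0.37. The summed list was higher at 7 DPP in WT mouse 1 only. Its ratio of 7 to 5 DPP was 1.29, 0.935, 0.939 and 0.882 by mouse. Itgb1, the beta 1 chain shared by most collagen, laminin and fibronectin receptors, was 195, 314, 446 and 482 at 5 DPP and 302, 349, 590.3 and 541 at 7 DPP (0.34 ± 0.11, adjusted p = 0.338). Itga6, the laminin-binding alpha 6 chain, was lower in 3 mice, at 318, 321, 421 and 429 at 5 DPP and 362, 252, 243 and 239 at 7 DPP (-0.45 ± 0.18). Its partner in the hemidesmosome, Itgb4, was the member lower in all 4, at 282, 382, 287 and 245 at 5 DPP and 229.9, 243, 129 and 148 at 7 DPP (-0.71 ± 0.15, adjusted p = 0.224, and 0.0345 over 20 libraries). Itga1, a collagen receptor chain, was 3.43, 7.32, 7.89 and 12.1 at 5 DPP and 12.5, 14.3, 15.8 and 20.9 at 7 DPP (1.04 ± 0.20, adjusted p = 0.223, and 0.0289).

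Contractile genes were higher in part. Of 31 tested, 13 were higher in all 4 mice (41.9%), none was lower in all 4, and the median was 0.29, with 0.49, 0.070, 0.23 and 0.35 by mouse. The most abundant members, Myl6, a myosin light chain of all cells, and Tagln2, an actin-binding protein, differed little, with log2 differences of 0.017 ± 0.094 and 0.032 ± 0.10. Acta2, the alpha smooth muscle actin that marks myofibroblasts, was 9.69, 49.7, 10.4 and 19.9 at 5 DPP and 15.8, 58.6, 82.3 and 92.8 at 7 DPP. Each mouse was higher at 7 DPP, with larger ratios in the Tnfr2-/- mice, and the fit over 20 libraries called it (1.48 ± 0.44, adjusted p = 0.305, and 0.0266 over 20 libraries). Tpm1, a tropomyosin of the actin filament, was 409, 501, 580.4 and 581 at 5 DPP and 590.1, 591, 814 and 806 at 7 DPP (0.43 ± 0.095, adjusted p = 0.232, and 0.032). Actg2, the enteric smooth muscle actin, was 2.49, 5.36, 3.99 and 3.82 at 5 DPP and 5.03, 11.1, 11.6 and 15.4 at 7 DPP (1.21 ± 0.23, adjusted p = 0.223). Myl9, the regulatory myosin light chain of smooth muscle, split by genotype, at 17.5, 33.2, 14.1 and 8.18 at 5 DPP and 8.16, 22.7, 44.2 and 63.1 at 7 DPP, lower at 7 DPP in the WT mice and higher in the Tnfr2-/- mice (0.71 ± 0.62). Desmin (Des), Lmod1 and Myocd, markers of mature smooth muscle, did not reach the mean of 1. The list sum divided by the 20 fibroblast markers was lower at 7 DPP in each mouse, from 9.83, 5.33, 6.06 and 4.15 to 6.82, 4.28, 2.82 and 2.67. Myl6 and Tagln2, which differed little, weigh most in that sum. The quotient therefore does not measure contractile expression per fibroblast. The CArG box, the site of serum response factor, was found in 5 of 30 promoters of the list (16.7%), against 417 of 27025 (1.54%), and these were Cnn2, Myl6, Myl9, Srf and Vcl. They did not share a direction, with Srf higher in every mouse (0.29 ± 0.16), Vcl lower in 3 (-0.17 ± 0.12), and Cnn2, Myl6 and Myl9 higher in 2 mice and lower in 2.

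TGF-beta ligands, receptors and targets had 11 of 23 members higher in all 4 mice (47.8%), none lower in all 4, and a median of 0.28. The ligand itself did not differ in a common direction. Tgfb1 was 29.8, 33.6, 54.5 and 55.4 at 5 DPP and 34.4, 30.4, 53.8 and 60.4 at 7 DPP (0.041 ± 0.12, adjusted p = 0.927). Among targets, the 2 most abundant were Pmepa1, an inhibitor of the pathway, at 194, 256, 276 and 277 at 5 DPP and 313, 308, 251 and 336 at 7 DPP (0.27 ± 0.14), and Ccn2, connective tissue growth factor, at 81, 312, 371 and 355 at 5 DPP and 151, 234, 287 and 293 at 7 DPP and lower in 3 mice (-0.041 ± 0.23). Ltbp2, a latent TGF-beta binding protein family member of elastic fibres, was 8.10, 6.66, 26.1 and 33.8 at 5 DPP and 16.5, 12.4, 65.7 and 76.7 at 7 DPP (1.05 ± 0.15, adjusted p = 0.205). The fit over 20 libraries called 1 member. The receptor chain Tgfbr1 was 16.5 to 31.3 at 5 DPP and 21.6 to 43.3 at 7 DPP (0.47 ± 0.12, adjusted p = 0.296). Without WT mouse 1, 12 of 23 were higher in the other 3 mice, where 19.0% of all genes were.

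Stress programmes differed from each other in direction. Hypoxia and glycolysis genes had 10 of 32 higher in all 4 mice (31.2%) and 1 lower, with a median of 0.15. The glycolytic enzymes at the top of the list did not share a direction, with Gapdh at 5166, 4543, 5322 and 5839 at 5 DPP and 6711, 4712, 4873 and 5688 at 7 DPP (0.066 ± 0.11) and Pkm, pyruvate kinase, lower in 3 mice (-0.085 ± 0.13). Members higher in every mouse included oxygen-regulated genes. Adm, adrenomedullin, was 6.97, 8.95, 14.2 and 33.4 at 5 DPP and 22.5, 12.8, 48.7 and 86.3 at 7 DPP (1.27 ± 0.23, adjusted p = 0.223, and 0.0391 over 20 libraries). Egln3, an oxygen-sensing prolyl hydroxylase, was 95.2 to 263 at 5 DPP and 164 to 413 at 7 DPP (0.59 ± 0.17), and Bnip3, a mitophagy receptor, was 82.1 to 224 at 5 DPP and 149 to 273 at 7 DPP (0.53 ± 0.15). By mouse the median was 0.42, 0.11, -0.0094 and 0.067, highest in WT mouse 1.

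Amino acid and unfolded protein responses had medians near 0. In the ATF4 list, which covers the response to amino acid shortage, 2 of 28 were higher and 2 lower in all 4 mice (7.14% each), and the median was -0.034. The summed ATF4 list was higher at 7 DPP in each mouse, by a ratio of 1.10 to 1.21. Nupr1, a stress-induced chromatin protein, was 774, 1410, 1871 and 1558 at 5 DPP and 1153, 1877, 2448 and 2208 at 7 DPP (0.47 ± 0.087, adjusted p = 0.223). Slc3a2, the shared heavy chain of amino acid exchangers, was 263 to 342 at 5 DPP and 242 to 331 at 7 DPP (-0.036 ± 0.11). In the unfolded protein response, 2 of 21 were higher in all 4 mice (9.52%) and none lower, the median was -0.0013, and the chaperones Calr (0.0071 ± 0.11) and Hsp90b1 (0.14 ± 0.14) differed little. NRF2 targets and metallothioneins had 4 of 28 higher and 4 lower in all 4 mice (14.3% each). The ferritin chains, which store iron, led that list. Fth1 was 1527, 1454, 2708 and 2876 at 5 DPP and 1720, 1687, 4140 and 5171 at 7 DPP (0.46 ± 0.14, adjusted p = 0.305), and Ftl1 was higher in 3 mice, at 2063, 3353, 3087 and 3017 at 5 DPP and 2498, 3280, 4428 and 5214 at 7 DPP (0.39 ± 0.14). The p53 and senescence list had 2 of 23 in each direction (8.70%), with Cdkn1a, the p21 cell cycle inhibitor, at 245 to 305 at 5 DPP and 257 to 401 at 7 DPP (0.22 ± 0.11), Perp, a desmosome-associated p53 target, at -0.11 ± 0.12, and Ccng1, cyclin G1, lower in all 4 mice and called over 20 libraries (-0.51 ± 0.10, adjusted p = 0.223, and 0.0441).

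Heat shock genes were lower at 7 DPP in median in each mouse, at -0.22, -0.15, -0.23 and -0.26. Of 20 members, 6 were lower in all 4 mice (30%, against 9.62% of all genes) and 2 were higher, and the list median was -0.22. Hspa8, the constitutive HSP70 chaperone, was 4697, 4196, 4505 and 4230 at 5 DPP and 3720, 3794, 3002 and 3283 at 7 DPP. All values of 7 DPP lay below all of 5 DPP (-0.36 ± 0.10, adjusted p = 0.303, and 0.0748 over 20 libraries). Hsp90ab1, the constitutive cytosolic HSP90, was 2392, 2691, 2164 and 2070 at 5 DPP and 1937, 2138, 1722 and 1898 at 7 DPP (-0.27 ± 0.089, adjusted p = 0.327). The summed list was 8676 to 9255 at 5 DPP and 6667 to 8014 at 7 DPP, without overlap.

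Immediate early genes, the fast transcriptional answer to a stimulus, had 5 of 23 tested higher in all 4 mice (21.7%) and 1 lower, with a median of 0.12. Ier3, an early apoptosis regulator, was 138, 205, 553 and 564 at 5 DPP and 307, 218, 574 and 608 at 7 DPP (0.35 ± 0.20), and Junb was 127, 124, 237 and 209.7 at 5 DPP and 206, 113, 191 and 225 at 7 DPP (0.085 ± 0.17). The AP-1 subunits Jun (0.58 ± 0.13) and Fosl2 (0.44 ± 0.13) were higher in every mouse with adjusted p-values of 0.232 and 0.305. Myc, which the study followed, was 107, 87.4, 105 and 99.5 at 5 DPP and 95.7, 83.6, 57.7 and 62.7 at 7 DPP, lower in each mouse (-0.43 ± 0.16, adjusted p = 0.373). Inflammatory and acute phase genes had 11 of 29 tested higher in all 4 mice (37.9%) and 1 lower, with a median of 0.39. Saa3, a serum amyloid, was the most abundant and did not share a direction, at 672, 2590, 1146 and 2043 at 5 DPP and 247, 3264, 3140 and 2113 at 7 DPP (0.10 ± 0.41). Ptgs2, cyclooxygenase 2, was 44.2, 108, 541 and 494 at 5 DPP and 214, 108, 412 and 560.2 at 7 DPP (0.51 ± 0.41). On each day the Tnfr2-/- mice lay above the WT mice, and within mice there was no common direction. Lcn2, the antimicrobial lipocalin, was 40.7, 153, 205 and 319.9 at 5 DPP and 92.7, 164, 483 and 547 at 7 DPP (0.82 ± 0.20, adjusted p = 0.276), and Tnf was 7.10, 13, 34.2 and 28.3 at 5 DPP and 22.3, 19.8, 37 and 35.5 at 7 DPP (0.63 ± 0.25, adjusted p = 0.386). The alarmin Il33 was the member lower in all 4 mice, at 22.2, 8.50, 42.1 and 33.2 at 5 DPP and 15.8, 5.26, 15.1 and 7.38 at 7 DPP (-1.13 ± 0.28, adjusted p = 0.286).

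Interferon-stimulated genes, the antiviral programme downstream of interferon receptors, split by mouse. Their median log2 difference was -0.41 over the 4 mice, with 0.49 in WT mouse 1 and -0.78, -0.76 and -0.71 in the other 3. Over all 4 mice 5 of 36 were lower in each (13.9%) and 1 was higher. Without WT mouse 1, 27 of 36 were lower in the other 3 mice (16.7% of all genes were) and 1 was higher, with a median of -0.73, while without WT mouse 2 the median was -0.24. The summed list was 991.2, 1412, 1572 and 1500 at 5 DPP and 1584, 766.8, 873.8 and 928.6 at 7 DPP. The most abundant members were Bst2, or tetherin, at 137, 218, 224 and 204 at 5 DPP and 146, 85.9, 157 and 165 at 7 DPP (-0.52 ± 0.22, adjusted p = 0.414), and Irf7, the interferon regulatory factor, at 54.9, 95.9, 125 and 101 at 5 DPP and 178, 39.7, 55.2 and 68.4 at 7 DPP (-0.32 ± 0.47). Isg15, the ubiquitin-like antiviral modifier, was 43.6, 78.4, 95.8 and 96 at 5 DPP and 97.3, 31.3, 23.9 and 36.4 at 7 DPP, with WT mouse 1 opposite to the other mice (-0.87 ± 0.48, adjusted p = 0.513). Among those lower in all 4 mice, Ifit3, which blocks viral RNA translation, was 19.5, 48.9, 29.9 and 32.1 at 5 DPP and 11.9, 18.8, 10.6 and 7.37 at 7 DPP (-1.35 ± 0.23, adjusted p = 0.205). Cxcl10, a T cell chemokine, was 18.6, 19.9, 28.1 and 19.3 at 5 DPP and 6.79, 12.9, 7.94 and 3.33 at 7 DPP (-1.46 ± 0.28), and Rsad2, or viperin, was 16.6, 11, 20.0 and 12.8 at 5 DPP and 5.99, 4.35, 11.2 and 7.63 at 7 DPP (-0.99 ± 0.19). None of the 36 was called over 20 libraries. Without WT mouse 1 that fit called Bst2 and Oas3, an oligoadenylate synthetase at 10.2, 20.2, 29.2 and 28.2 at 5 DPP and 35.1, 4.76, 12.7 and 12.9 at 7 DPP (-0.60 ± 0.55, adjusted p = 0.7 in the 8 libraries). Without WT mouse 2 it called Cxcl10.

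The promoters of Isg15, Ifit3 and Rsad2 are shown as members of this list that were lower in the 3 mice other than WT mouse 1. The lines give 150 bases before the start site (RefSeq, GRCm38.p6, gene strand), with matches to the interferon-stimulated response element in capitals, that is GAAA, any 2 bases and GAAA again, on either strand.
Isg15, chr4:156200819-156200968, minus strand: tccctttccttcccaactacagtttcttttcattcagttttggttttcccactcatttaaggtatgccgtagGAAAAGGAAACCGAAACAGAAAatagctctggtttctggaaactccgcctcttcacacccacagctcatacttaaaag
Ifit3, chr19:34583379-34583528, plus strand: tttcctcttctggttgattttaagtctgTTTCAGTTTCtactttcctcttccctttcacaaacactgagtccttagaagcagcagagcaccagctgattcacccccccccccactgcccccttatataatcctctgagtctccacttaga
Rsad2, chr12:26456453-26456602, minus strand: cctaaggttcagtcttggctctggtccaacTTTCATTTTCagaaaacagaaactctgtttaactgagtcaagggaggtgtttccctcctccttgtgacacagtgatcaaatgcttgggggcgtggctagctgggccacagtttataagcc
Isg15 held 3 overlapping matches, the first beginning 78 bases before the start site, and Ifit3 and Rsad2 held 1 each on the opposite strand, at 122 and 120 bases. In all, 15 of the 27 members with a promoter window held the element (55.6%), against 952 of 27025 promoters (3.52%). Bst2, Cxcl10 and Oas3 were among these 15. The element is named for such genes, so a high share follows from the choice of list and says nothing about the days. A match of letters shows no binding.

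Differentiation markers of absorptive colonocytes differed little as a list. Of 37 tested, 8 were higher (21.6%) and 3 lower (8.11%) in all 4 mice, and the median was 0.064. Lypd8, an antibacterial protein of mature surface colonocytes and the most abundant member, was 2447, 842, 776 and 802 at 5 DPP and 6760, 1224, 1387 and 1313 at 7 DPP (0.89 ± 0.16, a 1.85-fold ratio, adjusted p = 0.223). WT mouse 1 lay far above the other mice on each day. Emp1, an epithelial membrane protein, was 223, 381, 694 and 741 at 5 DPP and 589, 339.5, 648 and 519 at 7 DPP (0.16 ± 0.30). Car2, carbonic anhydrase 2, went the other way in each mouse, at 451, 203, 180.3 and 184 at 5 DPP and 291, 174, 102 and 128 at 7 DPP (-0.55 ± 0.12, adjusted p = 0.245).

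Goblet genes had no direction common to all mice. Of 24 tested, 2 were higher and 1 lower in all 4 mice, and the list median of 0.28 was made of -0.22, 1.00, 0.15 and 0.22 by mouse. Without WT mouse 1, 10 of 24 were higher in the other 3 mice (19.0% of all genes were) and 2 lower, and the median was 0.48. Without WT mouse 2, 2 were higher and 3 lower, and the median was 0.11. Tff3, the trefoil peptide of goblet cells, was 632, 60.4, 29.6 and 73.4 at 5 DPP and 586, 293, 90.7 and 114 at 7 DPP (1.09 ± 0.36, adjusted p = 0.334). Spink4 was 487, 74.3, 46.6 and 66.9 at 5 DPP and 463, 206, 67.3 and 69 at 7 DPP (0.49 ± 0.25). Without WT mouse 2 the log2 difference was 0.70 for Tff3 and 0.16 for Spink4. Muc2, the gel-forming mucin, was 396, 23.9, 13.8 and 24.4 at 5 DPP and 179, 70.5, 14.8 and 17.6 at 7 DPP, lower in WT mouse 1 and Tnfr2-/- mouse 2 and higher in the other mice (0.010 ± 0.40, adjusted p = 0.994). WT mouse 1 held most of the goblet signal at 5 DPP, with a list sum of 2822 against 591.5 to 684.4 in the other mice.

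Deep secretory and antimicrobial genes had a median of 0.85, or 0.58 without WT mouse 1, with 10 of 15 tested higher in all 4 mice (66.7%) and 1 lower. By mouse the median was 0.67, 0.71, 0.52 and 0.48. Besides Ang4 and Lypd8, which this list also holds, Slpi, a secreted protease inhibitor, was 39.8, 10.5, 79.8 and 95.1 at 5 DPP and 132, 28.6, 146 and 154 at 7 DPP (1.16 ± 0.19, adjusted p = 0.205). Lyz1, the lysozyme of Paneth cells, was 45.6, 18.6, 2.41 and 3.69 at 5 DPP and 73.3, 75.8, 5.53 and 12.4 at 7 DPP (1.27 ± 0.24, adjusted p = 0.223), far lower in the Tnfr2-/- than in the WT mice on each day. Duox2, the epithelial hydrogen peroxide generator, was 6.11 to 16.1 at 5 DPP and 11.1 to 46.2 at 7 DPP (0.85 ± 0.22). Also abundant, Wfdc2, a secreted protease inhibitor of mucosae, was the member lower in all 4 mice, at 678, 939, 1111 and 1080 at 5 DPP and 536, 493, 698 and 701 at 7 DPP (-0.64 ± 0.12, adjusted p = 0.223). Reg4, the marker of deep crypt secretory cells that the study followed, was 159, 22.2, 4.99 and 8.96 at 5 DPP and 101, 63.6, 7.32 and 3.22 at 7 DPP and did not share a direction (0.016 ± 0.43). Reg3b and Reg3g were listed at 0.

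Enteroendocrine genes had 5 of 12 tested higher in all 4 mice (41.7%), none lower, and a median of 0.57. By mouse it was 0.14, 1.14, 0.56 and 0.31, and without WT mouse 2 it was 0.33. Cpe, carboxypeptidase E, differed little (0.0094 ± 0.092), and Cck, cholecystokinin, was 47, 30.3, 423 and 416 at 5 DPP and 154, 53.3, 358 and 529 at 7 DPP (0.65 ± 0.29). Without WT mouse 1 the log2 difference of Cck was 0.30. Pyy, the peptide hormone of colonic L cells, was 162, 7.13, 34.8 and 16.4 at 5 DPP and 271, 110, 107 and 90.5 at 7 DPP (2.12 ± 0.45, adjusted p = 0.224, and 0.0729 over 20 libraries). Chgb, chromogranin B of hormone granules, was 39.5, 4.0, 2.83 and 3.86 at 5 DPP and 54.2, 17.3, 9.64 and 10.9 at 7 DPP (1.27 ± 0.25, adjusted p = 0.223, and 0.0353). Of 20 tuft markers, 8 were tested, and 5 were listed at 0 in these libraries. Of the 8, 2 were higher in all 4 mice (25%) and none lower. The median was 0.16, with 0.62, -0.53, 0.77 and 0.26 by mouse and 0.62 without WT mouse 2. The most abundant, Ptgs1, cyclooxygenase 1 (0.83 ± 0.21), is not particular to tuft cells. The kinase Dclk1, higher in every mouse, was 12.8, 16.3, 8.70 and 13.8 at 5 DPP and 14, 25.4, 23.9 and 22.3 at 7 DPP (0.68 ± 0.22, adjusted p = 0.326).

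Crypt stem cell genes and Wnt targets had 5 of 25 tested higher (20%) and 2 lower in all 4 mice, with a median of 0.23. By mouse it was 0.17, 0.33, 0.054 and -0.021, and without WT mouse 2 it was 0.10. Prom1 (-0.028 ± 0.11) and Slc12a2 (0.065 ± 0.090), the most abundant, differed little. Lgr5, the crypt stem cell receptor, was 19.7, 11.7, 15.6 and 20.0 at 5 DPP and 22.8, 32.3, 12.1 and 17.4 at 7 DPP, higher in the WT mice and lower in the Tnfr2-/- mice (0.26 ± 0.30, adjusted p = 0.762). Apcdd1, a Wnt antagonist that mesenchyme also expresses, was 22.3, 114, 24.6 and 43.2 at 5 DPP and 45.5, 167, 73.1 and 118 at 7 DPP (1.13 ± 0.18, adjusted p = 0.205, and 0.0481). Proliferation genes were lower in median in 3 of the 4 mice. Of 42, none was higher and 14 were lower in all 4 mice (33.3%), and the median was -0.32, with -0.52, 0.13, -0.44 and -0.57 by mouse. WT mouse 2 was the exception, and without it 31 of 42 were lower in the other 3 mice (16.5% of all genes were). Mki67, the antigen of cycling cells, was 54.9, 33, 34.6 and 34.2 at 5 DPP and 38.1, 36.1, 21.9 and 19.1 at 7 DPP (-0.46 ± 0.18, adjusted p = 0.387). Pcna, the sliding clamp of DNA replication, was 230.5, 196, 169 and 229 at 5 DPP and 244, 237, 165 and 180.3 at 7 DPP (-0.0051 ± 0.13), and Top2a, topoisomerase II alpha, was 78.4, 61.4, 63.6 and 66.2 at 5 DPP and 68.3, 78.2, 44.1 and 49 at 7 DPP (-0.20 ± 0.17). Cdc20, the activator of the anaphase complex, was the member called over 20 libraries, at 42.9, 35.2, 24.7 and 28.5 at 5 DPP and 28.5, 25, 10.5 and 17.5 at 7 DPP (-0.72 ± 0.16, adjusted p = 0.239, and 0.0361). The cyclin Ccnd1 was 205, 359, 247 and 243 at 5 DPP and 147, 174, 118 and 114 at 7 DPP, without overlap between the days (adjusted p = 0.205, and 0.00317).

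**Figure D4:**
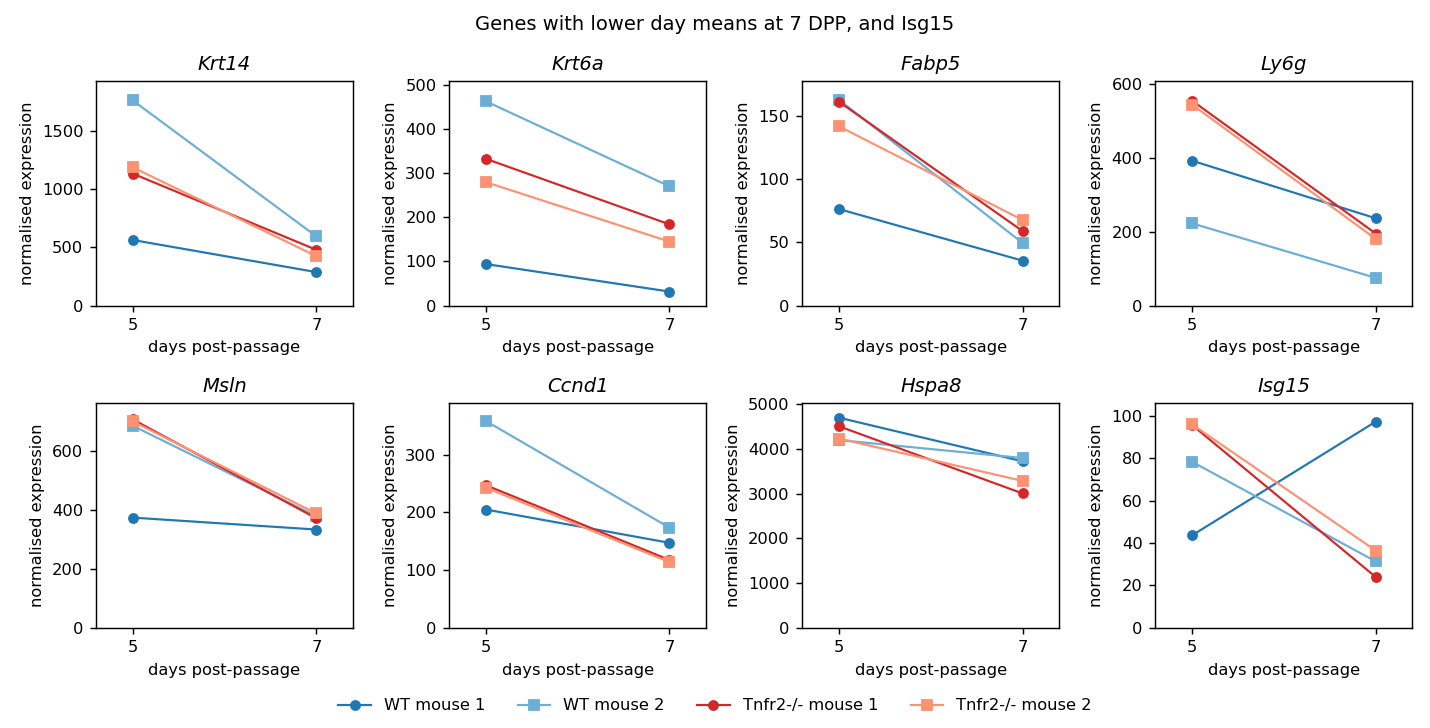
Normalised expression of 8 genes at 5 and 7 DPP, 1 panel a gene with its own vertical axis from 0, and 1 line a mouse. Lines run down in every mouse for 7 of the genes, as for Krt14 from 1768 to 595.6 in WT mouse 2, while Isg15 runs from 43.6 up to 97.3 in WT mouse 1 and down in the other 3 mice.

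Regenerative and fetal-type genes split between members and mice. Of 27 tested, 6 were higher and 6 lower in all 4 mice (22.2% each), and the median was -0.16, with 0.47 in WT mouse 1 and -0.22, -0.33 and -0.32 in the others. Without WT mouse 1, 15 of 27 were lower in the other 3 mice (16.7% of all genes were) and 6 were higher (19.0% of all genes were). The most abundant members, the calcium-binding S100a6 (-0.28 ± 0.18) and annexin A2, Anxa2 (-0.26 ± 0.24), were higher in WT mouse 1 and lower in the rest. Ly6a was 1783, 3316, 4427 and 4024 at 5 DPP and 2629, 2032, 3514 and 3492 at 7 DPP, with the same split (-0.17 ± 0.20, adjusted p = 0.768). Its relative Ly6d was 273, 222, 424 and 443 at 5 DPP and 563, 226, 436 and 467 at 7 DPP (0.30 ± 0.19), and clusterin (Clu) was 593, 2930, 2344 and 2546 at 5 DPP and 1485, 3462, 2606 and 2826 at 7 DPP (0.47 ± 0.21, adjusted p = 0.427). Without WT mouse 1 the log2 difference was 0.048 for Ly6d and 0.18 for Clu. Ly6c1 and Msln, mesothelin, were lower in all 4 mice and called over 20 libraries. Ly6c1 was 928, 1574, 2355 and 1840 at 5 DPP and 856, 601, 891 and 1031 at 7 DPP (-0.93 ± 0.22, adjusted p = 0.269, and 0.0441). Msln was 373, 685, 707 and 700.1 at 5 DPP and 333, 378, 371 and 388 at 7 DPP (-0.70 ± 0.15, adjusted p = 0.224, and 0.0257). Reads of Ly6-family members of similar sequence can be exchanged by pseudoalignment. Tnfrsf1a, which encodes the other TNF receptor, was 67.6, 170.1, 139.9 and 194 at 5 DPP and 158, 143, 105 and 123 at 7 DPP (-0.026 ± 0.30).

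Cholesterol synthesis was lower in median in each mouse. Of 25 genes of cholesterol synthesis, 12 were lower in all 4 mice (48%), none was higher, and the median was -0.22. Fdps, farnesyl diphosphate synthase, was 378, 419, 322 and 341 at 5 DPP and 375, 372, 287 and 256 at 7 DPP (-0.19 ± 0.10, adjusted p = 0.508), and Msmo1, a sterol demethylase, was 353, 326, 364 and 380.5 at 5 DPP and 408, 268, 268 and 237 at 7 DPP (-0.30 ± 0.15). The differences were small, and no member was called over 20 libraries. Fatty acid oxidation and ketogenesis had 2 of 25 tested higher and 3 lower in all 4 mice, and a median of 0.0022. The summed list was lower at 7 DPP in each mouse, by a ratio of 0.831 to 0.946. Ucp2, a mitochondrial carrier and the most abundant member, was 681, 537, 392 and 399.9 at 5 DPP and 546, 399, 225 and 254 at 7 DPP (-0.55 ± 0.11, adjusted p = 0.224, and 0.0266 over 20 libraries). Plin2, a lipid droplet coat protein, was 218 to 334 at 5 DPP and 206 to 279 at 7 DPP (-0.27 ± 0.10).

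List counts also moved when 1 mouse was left out. A count over 3 mice is higher by construction than one over 4, and over all genes 16.0% to 19.0% were then higher and 14.6% to 16.7% lower, depending on the mouse. Hypoxia genes had 16 of 32 higher without Tnfr2-/- mouse 1 (16.0% of all genes) and 10 without WT mouse 1, where 5 were lower. Crypt stem cell genes had 8, 5, 8 and 9 of 25 higher without WT mouse 1, WT mouse 2, Tnfr2-/- mouse 1 and Tnfr2-/- mouse 2, and ATF4 genes had 5, 5, 3 and 5 of 28 lower. Without WT mouse 1, unfolded protein response genes had 6 of 21 higher and 1 lower. NRF2 genes then had 9 of 28 higher and 5 lower, and fatty acid oxidation genes 7 of 25 higher and 5 lower. The hypoxia median was 0.040 without WT mouse 1, and that of the immediate early genes was -0.030.

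Whether the day effect differed between genotypes was asked with the interaction of day and genotype. No gene passed in the 8 libraries or in the fit over 20 libraries (0%), and 853 had an unadjusted p under 0.05 in the 8 libraries (6.29%). Within WT and within Tnfr2-/- no gene passed either, against 1215 (8.96%) and 1347 (9.93%) at an unadjusted p under 0.05. Over 20 libraries, 7 genes were called in WT and 19 in Tnfr2-/-. The 3 genes of lowest p for the interaction were predicted genes that were at or near 0 in several libraries and present in others. Gm20721 was 13.8, 18.2, 0 and 0 at 5 DPP, and at 7 DPP it was listed at under 0.001 or at 0 in the WT mice and at 18.3 and 11.4 in the Tnfr2-/- mice. Gm11353 and Gm6361 had the same kind of on and off values, and an exact 0 can be a failed estimate, so their fitted differences bound no fold. Among the genes described above, Acta2 had an interaction of 2.08 ± 0.35 (unadjusted p = 0.00142, adjusted p = 0.72), Myl9 of 2.97 ± 0.48 (unadjusted p = 0.00117, adjusted p = 0.72) and Col1a1 of 0.94 ± 0.22 (adjusted p = 0.765), each as the log2 difference in Tnfr2-/- minus that in WT. In Mmp13 it was -1.98 ± 0.81 (adjusted p = 0.782). Il11, a cytokine of stromal cells, was 6.24, 6.96, 454 and 433 at 5 DPP and 438, 37.1, 239 and 343 at 7 DPP, high in the Tnfr2-/- mice from 5 DPP and in WT mouse 1 at 7 DPP (interaction -4.72 ± 1.14, adjusted p = 0.765). None of these genotype contrasts passed the adjusted threshold.

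The step from 5 to 7 DPP was also set beside the earlier steps of the course. In the same kind of fit on the 8 libraries of each neighbouring pair of days, 58 higher (0.432%) and 41 lower (0.305%) genes were called for 2 against 1 DPP, none for 3 against 2 DPP (1816 at an unadjusted p under 0.05), 191 higher (1.42%) and 49 lower (0.364%) for 5 against 3 DPP, and none for 7 against 5 DPP. Neighbouring pairs share libraries, so these counts are given side by side without a test. Fibroblast markers summed to 2748 to 3529 at 1 DPP and 1054 to 2715 at 3 DPP, lower at 3 than at 1 DPP in every mouse. Fibrillar collagens summed to 1480 to 2836 at 1 DPP and 1206 to 5103 at 7 DPP, and the 7 DPP value lay above the 1 DPP value in 3 mice and below it in WT mouse 1. Protease sums were 6027 to 7270 at 1 DPP, 1722 to 5379 at 3 DPP and 5011 to 15240 at 7 DPP, above 1 DPP in the Tnfr2-/- mice and below it in the WT mice. Interferon-stimulated genes summed to 296.6 to 488.2 at 2 DPP, and all 4 mice were above that range at 5 and 7 DPP. Proliferation sums were 2753 to 3697 at 2 DPP, 1246 to 1847 at 5 DPP and 950.5 to 1562 at 7 DPP. Krt14 was 509 to 801, 1001 to 1940 and 1107 to 2432 at 1, 2 and 3 DPP over the 4 mice, and its 7 DPP value lay below that of 1 DPP in 3 mice and above it in WT mouse 2.

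**Figure D5:**
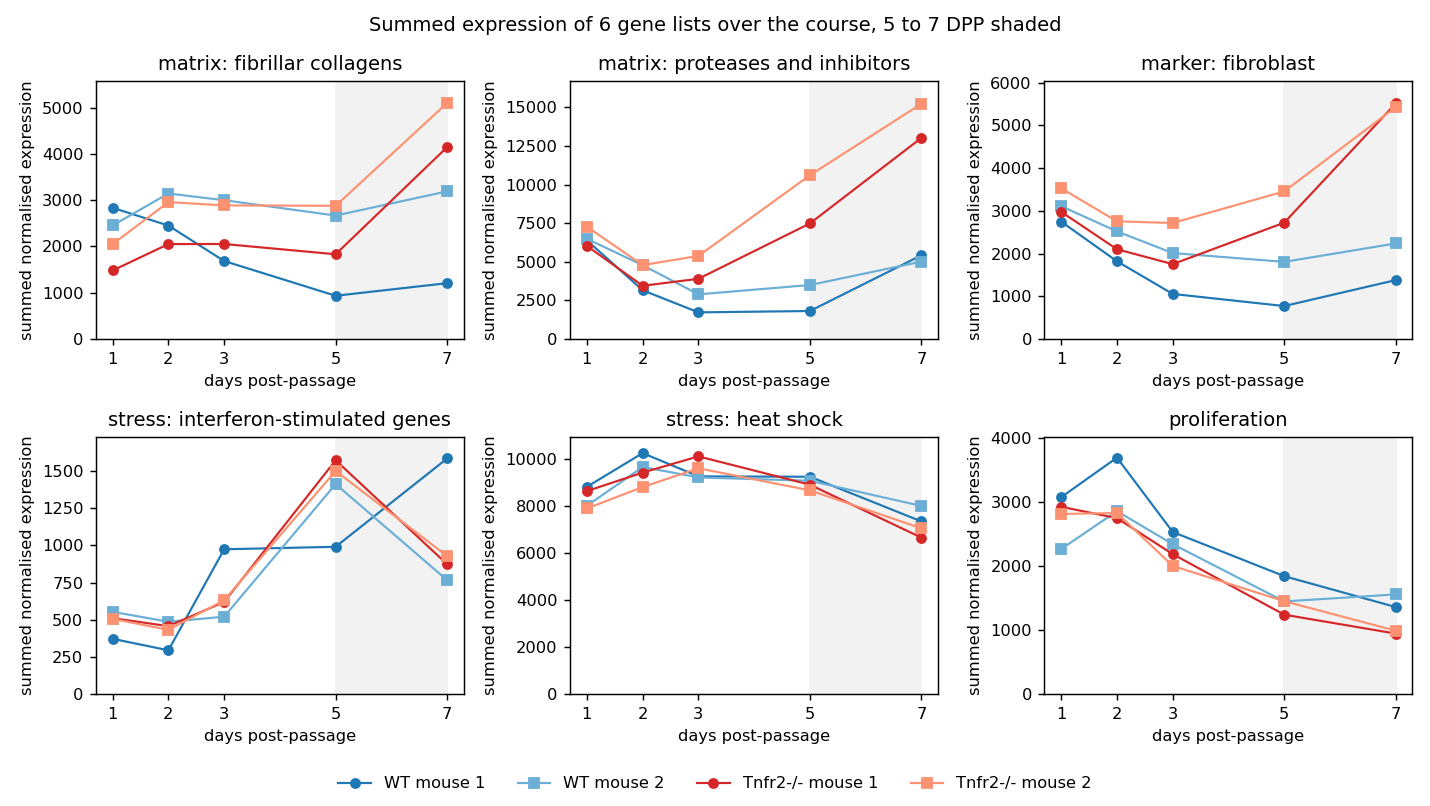
Summed normalised expression (vertical axis, from 0) of 6 gene lists at 1, 2, 3, 5 and 7 DPP (horizontal axis, with 5 to 7 DPP shaded), 1 line a mouse. Fibrillar collagens, proteases and fibroblast markers end above their 5 DPP values in each mouse, heat shock and, in 3 mice, proliferation genes end below, and interferon-stimulated genes run up in WT mouse 1 and down in the other 3 mice.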

How the data were processed

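RNA of mouse colonoids at 1, 2, 3, 5 and 7 DPP was sequenced as stranded, single-end mRNA libraries. Per the labels and the study's methods, the authors called bases with CASAVA, quantified transcripts with kallisto and normalised with sleuth, and the processing notes name mm10. The deposited table holds a signal per transcript and library, the TPM divided by a size factor. It holds no counts, so the depth of each library is unknown and its precision is seen only as the spread between mice. Its p-value and q-value columns, which hold comparisons made by the authors, were not used.

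Of 113974 lines, 781 repeats were dropped, and the values were summed per gene symbol. Genes with a mean of at least 1 over the 8 libraries (13565) were tested on log2(value + 1) with limma 3.58.1 in R 4.3.3, with the mouse as a block, 3 residual degrees of freedom, a mean-variance trend and Benjamini-Hochberg adjustment (two-sided). Folds are on the log2(value + 1) scale and understate changes of low genes. The fit was tested on simulated data. The day terms of the genotypes and their interaction came from a second model with 2 residual degrees of freedom. The labels name 2 mice a genotype and number the libraries of each genotype and day, and this number was taken as the mouse. The difference between the mice of a genotype correlated across genes between the days with r = 0.25 in WT and 0.0075 in Tnfr2-/-, and the mouse numbers of 2 genotypes were not matched with each other. That libraries of 1 number come from the same mouse on each day was assumed, and the counts over mice rest on it.

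Genes were named by rule. These were the targeted gene, the 10 of lowest unadjusted p in each direction with the same sign in all mice (since none was called, and without predicted genes of the form Gm and a number, Rik genes or pseudogenes, with which the clone-named AC147512.2 was also set aside), the most abundant members of each list, the 3 of lowest p for the interaction and 11 genes that the study followed. Some genes that this rule names are not reported here. The gene lists and their members were chosen with earlier results of these data known. Positions are of GENCODE M21 (GRCm38) and promoters of RefSeq (GRCm38.p6), matched by symbol. Alternatives were no block, other pseudocounts, filters and scalings, no trend, all 20 libraries, Ensembl identifiers in place of symbols, and leaving out each mouse.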

Additional observations from a re-analysis of the deposited data

Results flagged for a closer look

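Among the genes named, 14 had day differences of opposite sign in the genotypes, with both mice of WT on one side of 0 and both of Tnfr2-/- on the other. Values are the log2 difference in Tnfr2-/- minus that in WT, and none passed the adjusted threshold in limma's interaction test. Over all genes tested, 1516 (11.2%) had such opposite signs. Positive values were those of Myl9 (2.97 ± 0.48, adjusted p = 0.72), the endothelial marker Eng (1.17 ± 0.44, 0.772), the calponin Cnn2 (0.60 ± 0.22, 0.772), P4hb (0.35 ± 0.18, 0.823) and Slc3a2 (0.29 ± 0.19, 0.847). Cnn2 was 83.5, 139.6, 119 and 145 at 5 DPP and 73.8, 99.1, 134 and 186 at 7 DPP. Negative values were those of the cytokine Il11 (-4.72 ± 1.14, 0.765), the epithelial protease Mmp7 (-1.18 ± 0.21, 0.72), Lgr5 (-1.06 ± 0.46, 0.782), Lgals4 (-0.53 ± 0.17, 0.765), Pcna (-0.37 ± 0.21, 0.832) and Gapdh (-0.30 ± 0.20, 0.853). Mmp7 was 39.7, 23.4, 159 and 136 at 5 DPP and 82.3, 46.5, 133 and 126 at 7 DPP. The predicted genes Gm20721 (8.03 ± 0.53, 0.158), Gm11353 (6.94 ± 0.57, 0.251) and Gm6361 (-5.55 ± 0.55, 0.46) rest on libraries listed at 0 or near it, so these values depend on the pseudocount and bound no fold.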

How the results depend on the processing

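The number called for 7 against 5 DPP was 2 without the mean-variance trend and 108 over all 20 libraries, and 0 with other pseudocounts, filters, scalings and gene identifiers, and without any 1 mouse. In the fit with no replicate block it was 2, and 2 for the genotype difference (Gm11353 and Gm20721). The 2 genes were AC147512.2 (-2.73) and Gm11847 (3.19) without the block and without the trend. Over 20 libraries it was 7 in WT and 19 in Tnfr2-/-. Another scaling shifted the median of all genes by at most 0.011 on the log2 scale. Of 32 list medians, 27 moved by less than the spread between mice under every alternative. Medians near 0 changed sign. Leaving out 1 mouse did so for the regenerative (-0.35 to 0.068), immediate early (-0.030 to 0.26), ATF4 (-0.091 to 0.034), unfolded protein response (-0.041 to 0.036), NRF2 (-0.0046 to 0.12), fatty acid oxidation (-0.021 to 0.028), epithelial marker (-0.10 to 0.082) and p53 lists. The sign also changed for fatty acid oxidation and epithelial markers with a mean of at least 10, for nerve and glia with no filter, for fatty acid oxidation with upper quartile scaling and for the unfolded protein response with TMM scaling. With a pseudocount of 5 the protease median was 0.52 and the deep secretory median 0.67. With a mean of at least 10 the p53 median was 0.0043 and the tuft median 0.76. Leaving out 1 mouse gave 0.60 to 0.77 for proteases, 0.58 to 0.95 for deep secretory genes, -0.24 to -0.15 for heat shock and -0.050 to 0.0025 for p53 targets. Of 155 named genes, 128 kept their sign throughout. Calls of named genes came from the fit over 20 libraries, and for AC147512.2 and Gm11847 also from the fits above, and without 1 mouse that fit called 0 to 301 genes, an alternative chosen after seeing the data. Sign changes were found for Reg4 (-0.011 with a pseudocount of 0.1), Muc2 (-0.0075 with 5) and Pcna (0.0055 with TMM scaling). Leaving out 1 mouse changed the sign of genes whose difference lay near 0 or whose mice disagreed, with ranges for Calr (-0.050 to 0.10), Ccn2 (-0.35 to 0.083), Cd68 (-0.022 to 0.64), Cnn2 (-0.17 to 0.12), Cpe (-0.0093 to 0.052), Csf1r (-0.15 to 0.21), Emp1 (-0.26 to 0.38), Eng (-0.052 to 0.55), Gapdh (-0.037 to 0.13), Gm11353 (-1.69 to 0.79), Gm20721 (-1.51 to 1.34), Junb (-0.12 to 0.22), Lgals4 (-0.15 to 0.045), Lgr5 (-0.11 to 0.47), Ly6a (-0.41 to 0.0075), Muc2 (-0.49 to 0.39), Myl6 (-0.033 to 0.073), Pcna (-0.10 to 0.11), Plaur (-0.072 to 0.15), Prom1 (-0.13 to 0.042), Ptgs2 (-0.070 to 0.81), Reg4 (-0.47 to 0.43), Saa3 (-0.35 to 0.61), Slc3a2 (-0.10 to 0.038), Tagln2 (-0.035 to 0.073), Tgfb1 (-0.013 to 0.10) and Tnfrsf1a (-0.44 to 0.18), and the cause was not tested. The unknown depth limits all values near 1.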
